A study of Drosophila melanogaster with 3 samples.

Results

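The 10 genes described here, brat, insc, pros, mira, nub, pdm2, cas, svp, grh and dpn, act in the asymmetric division and the temporal patterning of neuroblasts, the neural stem cells of the fly. They were chosen by name from 13945 protein-coding genes on the main chromosome arms, and all 10 were found in the annotation. A peak counted for a gene when its summit lay in the gene body or within 1000 bp upstream of the 5' end. By this rule the 10 genes held 18 of the 6580 peaks of the optimal list and 128 of the 30000 peaks of the pooled list, which holds background as well as peaks. In the whole lists of replicates 1, 2 and 3, of 30000 peaks each, they held 111, 99 and 124.

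Grain, the GATA-family zinc-finger protein encoded by grn, was profiled by ChIP-seq with an anti-GFP antibody in Drosophila melanogaster embryos of 0 to 24 h, both sexes pooled. The flies were a transgenic line, grn-GFP, that stably expresses Grain with GFP fused to its C-terminus, and all samples carry this transgene. There was 1 group of 3 biological replicates, no second genotype, treatment or age, and no separate untagged sample was analysed here. The files list ranked peaks and hold no read counts, so the depth behind a peak is unknown. Whole embryos were used, so a site held in few cells and a site held weakly in many cells cannot be told apart, and the lists do not show whether a peak came from neuroblasts. The promoter that drives the transgene is not given in the sources used here.

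A neuroblast divides into another neuroblast and a smaller ganglion mother cell. Inscuteable (insc) links the apical polarity proteins to the mitotic spindle, and Miranda (mira) is the adaptor that carries Prospero (pros) and Brat (brat) into the smaller daughter, where they end stem cell fate. Deadpan (dpn) is a bHLH repressor that keeps neuroblasts dividing. Neuroblasts also express a sequence of transcription factors in time, in which the POU proteins Nubbin (nub) and Pdm2 (pdm2) are followed by the zinc-finger protein Castor (cas) and later by Grainyhead (grh), while the nuclear receptor Seven-up (svp) acts as a switch early in the sequence.

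Shown first are the bases around the strongest Grain summits of 4 of these genes, to show where the GATA hexamer bound by this protein family lies, or is missing, next to a summit. Of all 18 optimal summits of the 10 genes, 8 (44.4%) hold one. The bases at insc and grh are not printed, and the 3 grh summits hold none. Each run is the dm6 plus strand, 5′ to 3′, and covers the summit and 50 bases on each side. Capitals mark a match to the hexamer AGATAA, to its form with a last G, AGATAG, to its form with a first T, TGATAA, or to the form with both changes, TGATAG, on either strand, so that a match on the minus strand reads as its reverse complement. The second pros window belongs to its next strongest peak and is shown because the first holds no hexamer.
brat, chr2L:19164014-19164114: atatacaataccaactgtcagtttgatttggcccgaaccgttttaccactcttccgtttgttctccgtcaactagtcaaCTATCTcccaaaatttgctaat
nub, chr2L:12589200-12589300: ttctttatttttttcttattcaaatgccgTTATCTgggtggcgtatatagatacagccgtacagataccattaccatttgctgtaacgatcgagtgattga
svp, chr3R:12259979-12260079: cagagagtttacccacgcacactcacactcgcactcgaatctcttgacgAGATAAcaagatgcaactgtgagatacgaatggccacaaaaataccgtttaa
pros, strongest, chr3R:11353247-11353347: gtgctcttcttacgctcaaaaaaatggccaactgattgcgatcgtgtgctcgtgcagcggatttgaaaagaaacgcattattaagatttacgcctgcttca
pros, next, chr3R:11345188-11345288: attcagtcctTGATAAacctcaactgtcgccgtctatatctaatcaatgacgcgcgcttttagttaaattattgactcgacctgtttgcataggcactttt
In svp the hexamer AGATAA covers the summit itself. It lies 16 bp from the summit in nub, 29 bp in brat and 35 bp in the second pros window. All 5 windows lie in introns and touch no annotated UTR.

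Grain peaks of the optimal list were found at 6 of the 10 genes, brat, insc, pros, nub, svp and grh, and at none of mira, pdm2, cas and dpn. Over all protein-coding genes, 25.5% held an optimal summit. The 10 genes differ greatly in length, from 4322 bp in mira to 80148 bp in pros with the upstream part included, and long genes hold more summits. Of the 7 that span over 10 kb, 6 held an optimal summit, against 55.3% of all protein-coding genes of that size. Of the 3 shorter ones, mira, cas and dpn, none did, against 20.1%. At least 2 optimal summits were held by 5 of the 10 genes, all but svp of the 6 above, against 9.86% of all protein-coding genes and 36.4% of those over 10 kb. Among the 6580 strongest peaks of each replicate taken alone, 6 of the 10 genes held a summit in replicate 1, in replicate 2 and in replicate 3, where 26.0%, 28.3% and 24.7% of all protein-coding genes did. The 6 genes were those of the optimal list each time, since 6 held such a summit in every replicate, against 19.8% of all protein-coding genes.

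**Figure D1:**
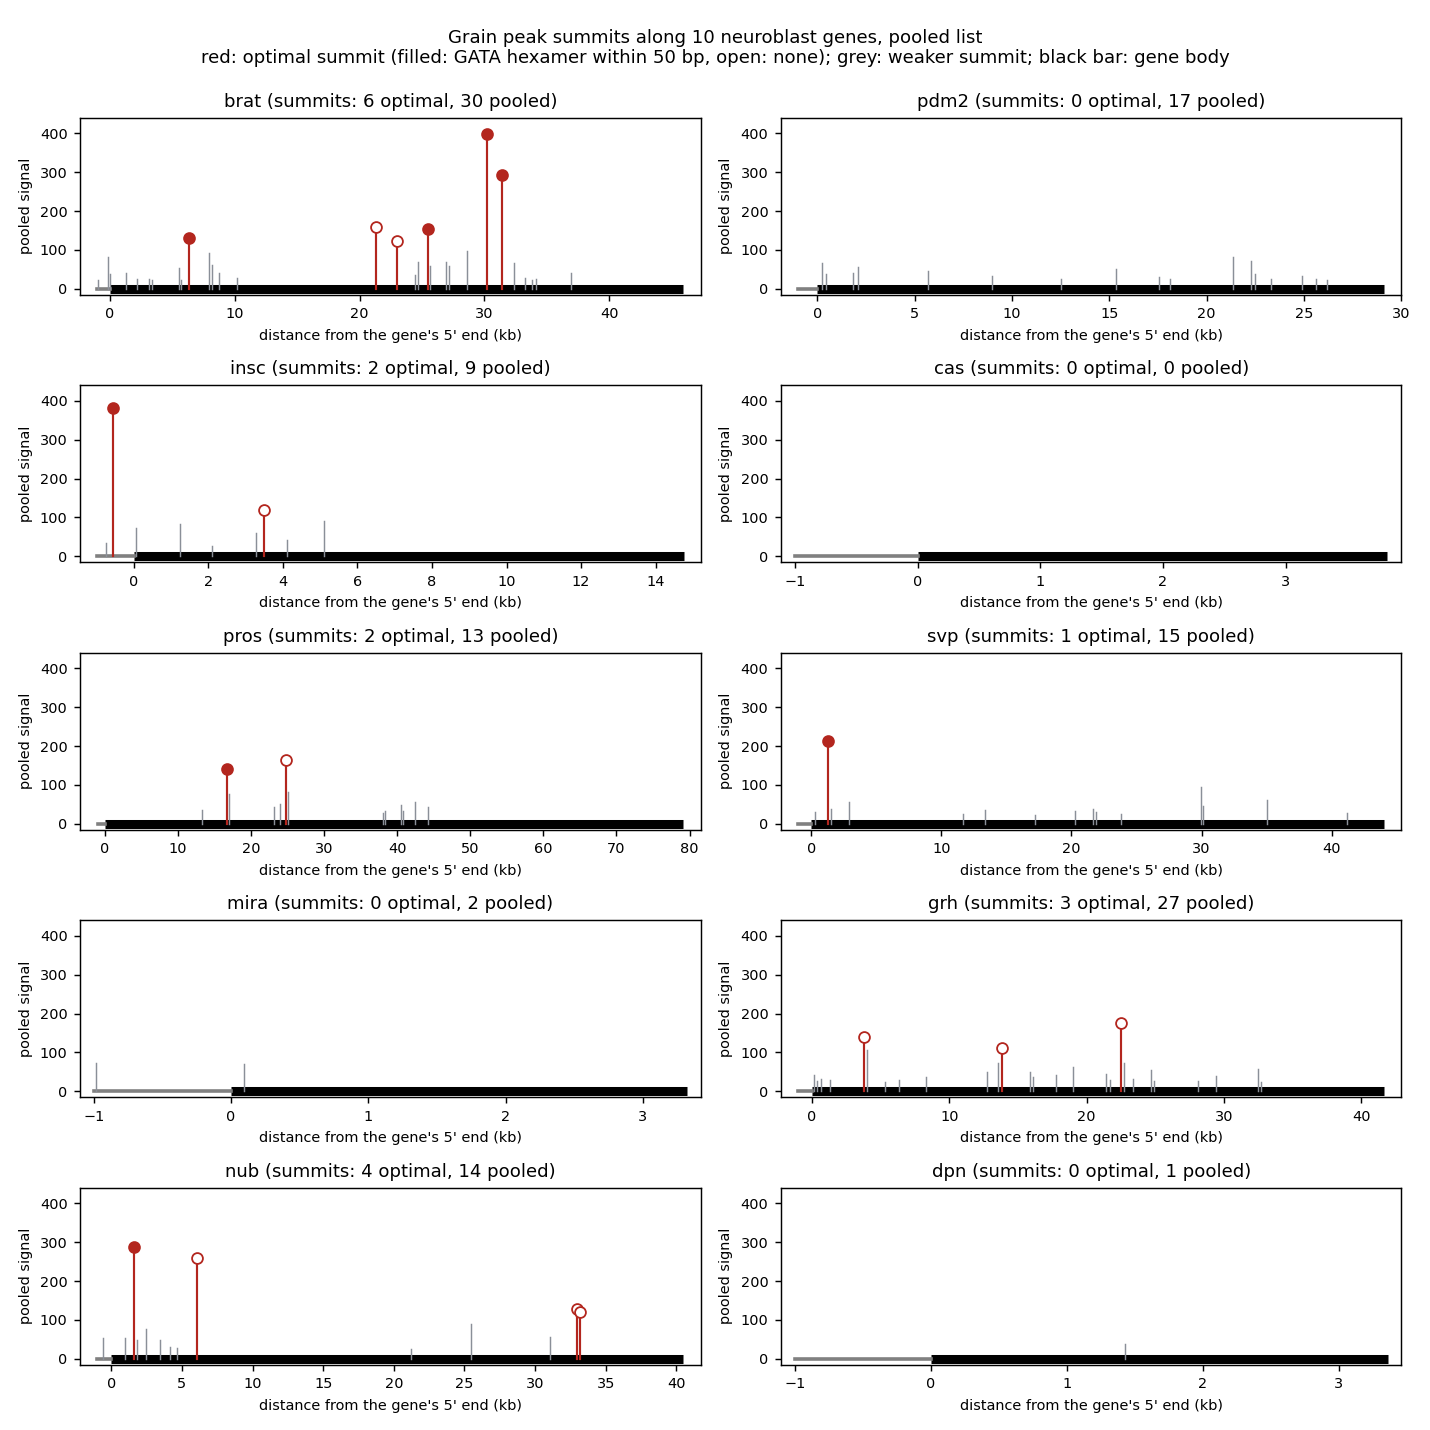
Grain summits of the pooled list along each of the 10 genes, by distance from the gene's 5' end in kb (x axis) and by the authors' pooled signal (y axis, scale not stated). Red stems are optimal summits, filled where a GATA hexamer lies within 50 bp of the summit, and grey stems are weaker summits. The strongest summits are those of brat (399), insc (381) and nub (288), and no red stem stands at mira, pdm2, cas or dpn.

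The strongest peaks of the 10 genes were in brat and upstream of insc, among the cell division genes, while pros held weaker ones and mira none of the optimal list. In brat (FBgn0010300, chr2L:19133816-19179758, plus strand), which encodes an NHL-domain repressor of translation, 6 optimal summits lay in introns. The strongest, at chr2L:19163894-19164232, had a pooled signal of 399 and ranked 667 of 30000 in the pooled list. It ranked 662, 577 and 806 in replicates 1, 2 and 3, a mean rank of 682 ± 116 (SD, n = 3). It lay 30248 bp inside the gene and 1803 bp from the start of the short transcript brat-RF. A hexamer lay 29 bp from its summit. A second peak, at chr2L:19165117-19165252, had its summit 673 bp from the same start and ranked 1650, 1436 and 1139 in the replicates. In these strongest sites the 3 replicates gave like ranks, and the other brat peaks did so less. The next, at chr2L:19154889-19155348, ranked 4440 in replicate 1 and 2525 in replicate 3 but 21024 in replicate 2. Replicate 2 was also the low one at the sixth brat peak, with rank 23738 against 4493 and 6184. The fourth brat peak lay 35 bp from the start of the non-coding gene lncRNA:CR44977, and the fifth lay nearer to a start of Polr1D, at 4948 bp, than to one of brat. Hexamers lay within 50 bp of 4 of the 6 summits.

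In insc (FBgn0011674, chr2R:20821262-20836028, minus strand), the strongest peak, at chr2R:20836412-20836751, lay upstream of the gene, with its summit 551 bp from the 5' end. Its pooled signal was 381, its pooled rank 756, and its ranks in replicates 1, 2 and 3 were 769, 1809 and 598. A hexamer lay 1 bp from its summit. The annotation gives the same start to insc and to sktl, which encodes a phosphatidylinositol phosphate kinase and overlaps insc on the same strand, so this peak is as near to one gene as to the other. The second insc summit, with signal 118, lay in introns of both genes, 110 bp from an internal start of sktl and 3500 bp inside insc. It had no hexamer, and ranked 4385 in replicate 2 but 8391 and 8425 in replicates 1 and 3. Both optimal insc peaks can therefore be assigned to sktl as well.

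In pros (FBgn0004595, chr3R:11328480-11407627, plus strand), which encodes a homeodomain protein, 2 optimal summits lay in an intron, 24817 and 16758 bp from the 5' end. The stronger, at chr3R:11353067-11353526, had a signal of 164 and ranked 5645, 3672 and 2692 in replicates 1, 2 and 3. It lay 166 bp from the shared start of KP78a and KP78b, protein kinase genes inside the pros intron, and 18317 bp from the nearest start of pros. The other, at chr3R:11345008-11345467, had a signal of 141 and ranked 6067, 4605 and 5231. No optimal peak of pros thus lay within 10 kb of a pros start, since the second was 10258 bp away. The pros gene had the lowest density of pooled summits of the 7 long genes. It held 13, the 2 optimal ones included, or 1.62 per 10 kb. The median was 2.40 for all 2133 protein-coding genes over 10 kb.

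The adaptor gene mira (FBgn0021776, chr3R:19931799-19935120, minus strand) held no optimal summit but a pair of pooled ones. The first was 986 bp upstream, just inside the limit of the rule, with signal 73.8 and pooled rank 10605. It was overlapped by peaks ranked 10469 and 7906 in replicates 1 and 3 and by none in replicate 2. The second lay in the 5' UTR, 28 bp from a start, with signal 71.3 and ranks of 18112, 16796 and 9327. Neither had a hexamer, and both also lie in an intron of Hs6st. The self-renewal gene dpn (FBgn0010109, chr2R:8228971-8232330, minus strand) held 1 pooled summit, of signal 37.6 and pooled rank 20100. Replicates 1 and 3 each listed 2 summits there, the better ones at ranks 18882 and 20628, and replicate 2 listed none. The nearest optimal summit to dpn was 5132 bp upstream, in pnut, a septin gene.

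Among the temporal genes, nub held the strongest peaks and cas held none in any list. In nub (FBgn0085424, chr2L:12587625-12628135, plus strand), the strongest peak, at chr2L:12588963-12589456, was intronic, 1625 bp from the 5' end, with a signal of 288. It ranked 2369 in replicate 1, 1068 in replicate 2 and 1044 in replicate 3. The next, at chr2L:12593542-12593776, lay in the 5' UTR, 6030 bp from the 5' end, with a signal of 260 and ranks of 2233, 1537 and 1461. Its nearest hexamer was 55 bp from the summit, just outside the window searched. The other two nub summits were 1813 and 2021 bp from the start of nub-RE and lay on overlapping intervals. In each replicate the same peak overlapped both, at ranks 4049, 4063 and 7247, and they also lie in an intron of Ref2.

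The paralogue pdm2 (FBgn0004394, chr2L:12657165-12686306, plus strand) had no optimal summit but 17 pooled ones, or 5.64 per 10 kb against 3.37 for nub. Its strongest had a signal of 81.3, a pooled rank of 9490 and ranks of 11643, 17279 and 9338 in the replicates, 72 bp from the start of pdm2-RA. Replicate counts of pdm2 summits were uneven, at 6, 10 and 16. The ranges of best ranks did not overlap between these paralogues: 1044 to 2233 in nub and 8999 to 11643 in pdm2. Only nub holds optimal peaks, and the optimal list was made from these replicates, so these ranges are no separate evidence. In the 29029 bp between nub and pdm2 lay 8 pooled summits, and 3 of these were optimal. The one next to nub, 5199 bp past its 3' end, and the one next to pdm2, 15259 bp upstream of it, both lay in Ref2 and had its start as the nearest coding one.

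No summit of any dm6 list lay in cas (FBgn0004878, chr3R:5712975-5716805, minus strand) or in the 1000 bp upstream. The nearest optimal summits were 62499 bp upstream and 40205 bp past the 3' end, at other genes. Of all protein-coding genes, 47.4% held a pooled summit, and of those of 10 kb or less 41.5% did. Of the 10 genes 9 held one, 2 of the 3 short ones among them, and a short gene without any is common. The rest of the 9 span over 10 kb. All protein-coding genes of that size held a median of 5 pooled summits, and their share with at least 1 was not taken.

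In svp (FBgn0003651, chr3R:12258737-12302785, plus strand), the 1 optimal peak, at chr3R:12259951-12260136, had a signal of 212 and lay in an intron 1292 bp from the 5' end. It ranked 2316 in replicate 1, 6048 in replicate 2 and 2164 in replicate 3, so replicate 2 was the low one here too. The replicate summits lay 2, 18 and 17 bp from the pooled summit, that is, at or beside the hexamer printed above. The nested gene CG44037 also holds this summit, and the small gene CG44038 starts 940 bp away, nearer than any start of svp. The other 14 pooled summits of svp had signals of 95.0 or less, and 7 of them had a hexamer.

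In grh (FBgn0259211, chr2R:17801132-17842820, plus strand), 3 optimal summits were found, and none had a hexamer. The strongest, at chr2R:17823432-17823891, lay in a 5' UTR 97 bp from the start of grh-RN and grh-RO, with a signal of 175 and ranks of 4072, 4441 and 3628. It was the only one of the 18 optimal peaks within 500 bp of a start of its own gene. The other two, with signals of 139 and 112, ranked 8987 and 14480 in replicate 3 and between 3919 and 4894 in replicates 1 and 2. The grh gene had 27 pooled summits, or 6.32 per 10 kb, next to 6.39 in brat with 30, and 5 of the 27 had a hexamer against 11 of the 30 in brat.

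**Figure D2:**
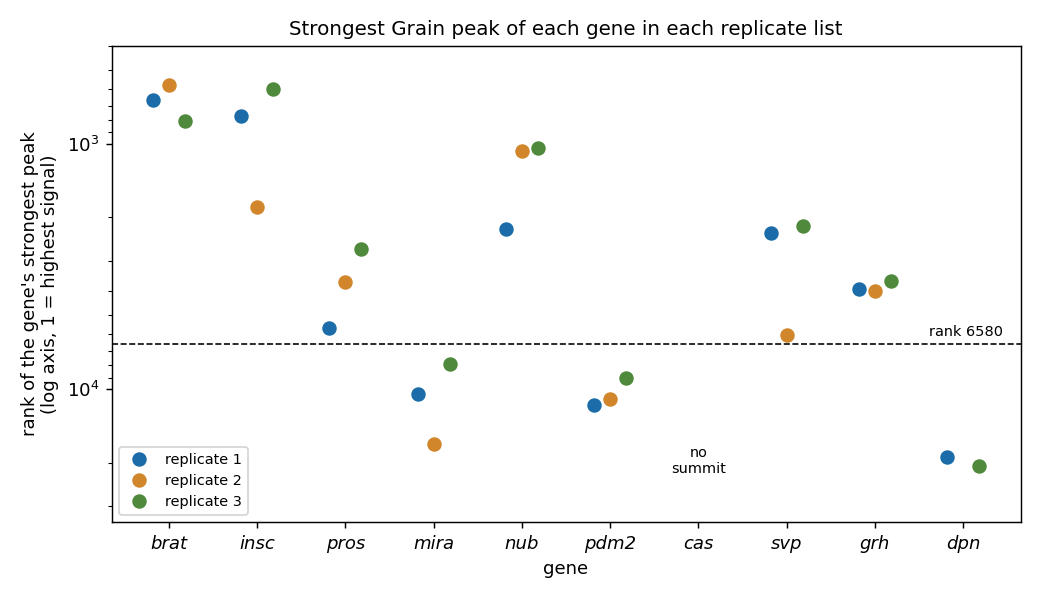
Rank of the strongest peak with its summit in each gene, in each replicate's list of 30000 (y axis, log scale, rank 1 is the highest signal, 1 point per replicate). The dashed line is rank 6580, the size of the optimal list. In all 3 replicates brat, insc, pros, nub, svp and grh lie above the line and mira, pdm2 and dpn, where listed, lie below it.

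Ordered by the best rank in the gene, brat came first (mean 682 ± 116, SD, n = 3), followed by insc (1059 ± 655), nub (1448 ± 680), svp (3509 ± 2200), grh (3840 ± 186), pros (4003 ± 1504), pdm2 (10543 ± 1377) and mira (11724 ± 4576). In dpn 1 replicate listed no summit, so it is left out of this order. The best summit of a gene was not always the same site. In grh it lay 3818 and 3786 bp from the 5' end in replicates 1 and 2 but 22531 bp in replicate 3. The small SD of grh is thus not that of 1 site, and its strongest pooled peak had a mean rank of 4047 ± 407. The best site also differed between replicates in nub, pdm2 and mira. Neighbours in this order were not separated, except pros and pdm2. The replicate ranges of brat and insc overlap, as do those of insc and nub, of nub and svp, of svp, grh and pros, and of pdm2 and mira. Those of pros and pdm2 do not overlap, at 2692 to 5645 and 8999 to 11643. This gap falls between genes with and without optimal peaks. The optimal list was made from these same replicates, so the gap is no separate evidence. A best rank is also taken over more summits in a gene that holds more. At these genes the lowest signal within the optimal list was 112, and the highest just below the list was 106, both in grh. At pros and svp another gene's start is nearer, and at insc the nearest start is shared with sktl. The rank at each of these genes is thus that of a site with more than 1 candidate gene.

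The replicates ranked the weaker peaks unevenly. Of the 18 optimal peaks, 15 had their strongest overlapping peak with a summit within 100 bp in all 3 replicates. The pooled summits were made from these same replicates, and the like share over all optimal peaks was not taken. Only 10 of the 18 (55.6%) overlapped one of the 6580 strongest peaks of all 3, against 67.8% of all optimal peaks, and 6 did so in 2 replicates and 2 in 1. All 6 peaks ranked 3290 or better were among the 10, and of all optimal peaks with such ranks 96.0% were. Below rank 3290 the shares were 4 of 12 (33.3%) and 39.6%. The 18 peaks lay lower in the optimal list than its middle, with a median rank of 3930 of 6580 and a median signal of 157, against 176 for all. By rank, 1 of the 18 fell outside the strongest 6580 in replicate 1, 3 in replicate 2 and 6 in replicate 3. The losses thus did not fall on 1 library, and the like counts over all optimal peaks were not taken. Median peak width and the maximum −log10 q-value were lowest in replicate 2, at 430 bp and 3.64 against 456 to 464 bp and 4.12 to 4.16, and their part in these ranks was not tested.

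**Figure D3:**
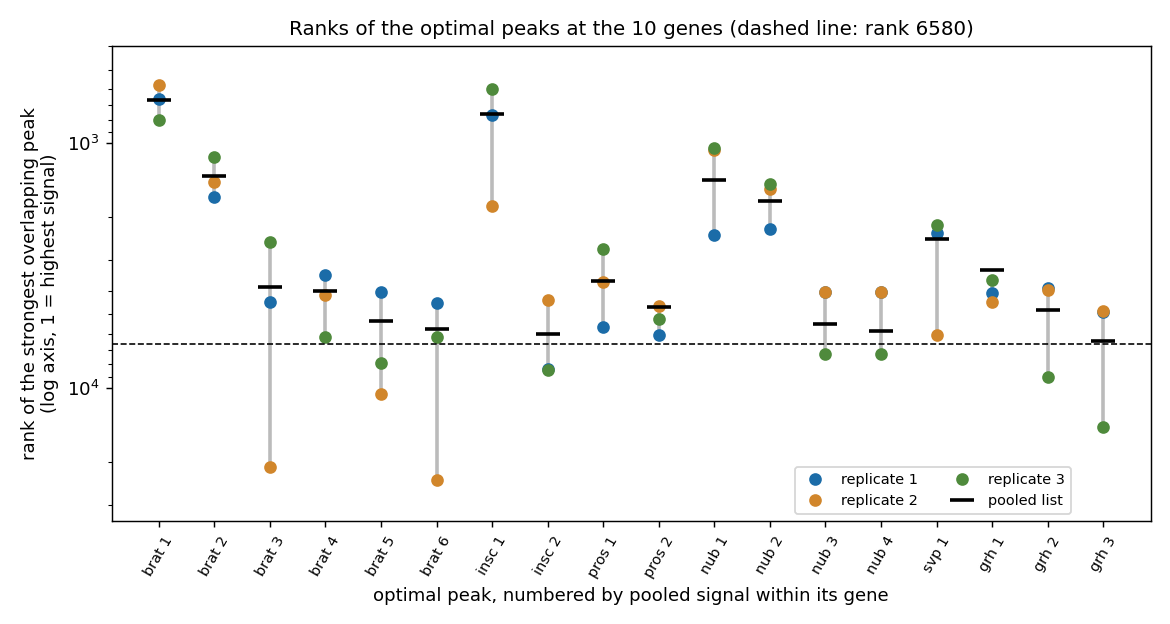
Ranks of the 18 optimal peaks in the lists of the 3 replicates (coloured points) and in the pooled list (black bars), on a log axis with rank 1 as the highest signal, and a grey line from the lowest to the highest replicate. The dashed line is rank 6580. The first peaks of brat and nub lie above it in every replicate, while the third and sixth brat peaks fall to ranks 21024 and 23738 in replicate 2.

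Of the 7 long genes, the numbers of summits in the whole lists were closest between replicates in insc (9, 8 and 9), nub (15, 15 and 13) and svp (14, 13 and 15). Mira had 2 in each replicate and cas 0. By SD the numbers were least even in brat, with 28, 18 and 29 (mean 25.0 ± 6.08, SD, n = 3), and in pdm2, with 6, 10 and 16 (mean 10.7 ± 5.03). In grh, with 26, 19 and 25, replicate 2 was again the low one. Among the strongest 6580 peaks of each replicate alone, the 10 genes held 20, 19 and 12 summits, a mean of 17.0 ± 4.36. Brat had 7, 4 and 5 of these, nub 4, 4 and 2, and grh 4, 3 and 1. The density of pooled summits had a median of 4.00 per 10 kb over the 10 genes, against 0 over all protein-coding genes, and of 5.64 over the 7 long ones, against 2.40 over all of that size. The pooled and replicate lists hold background together with peaks by the authors' own naming, so a weak summit in them, such as those of pdm2, mira and dpn, may be background.

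**Figure D4:**
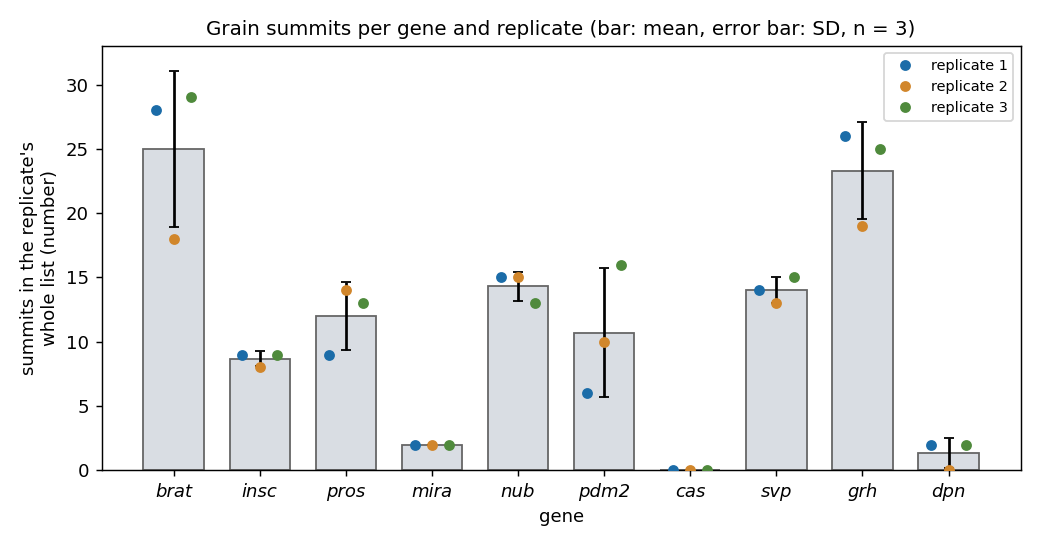
Number of Grain summits in each gene in the whole list of each replicate (points), with the mean (bar) and SD (error bar, n = 3). Brat and grh hold the most, with means of 25.0 and 23.3, replicate 2 is lowest in both, and cas is at 0 in every replicate.

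Most of these peaks lay inside introns, about as often as in other long genes. Of the 18 optimal summits, 15 were intronic, 2 were in a 5' UTR, 1 was upstream, and none was in coding sequence or a 3' UTR. The intronic share was 83.3%, against 80.2% of the 3606 pairs of an optimal summit and a protein-coding gene over 10 kb made by the same rule, and 54.6% of such pairs over genes of any size. All 18 summits lay in genes over 10 kb. Within 500 bp of the start of any annotated transcript lay 4 of the 18 (22.2%), against 39.7% of all optimal peaks, and within 1000 bp 8 of the 18 (44.4%), against 51.2%. Taking each replicate's strongest 6580 peaks, the share within 500 bp at the 10 genes was 15.0%, 26.3% and 25.0% in replicates 1, 2 and 3 (mean 22.1% ± 6.18, SD, n = 3). Over all peaks it was 40.6%, 42.0% and 38.7% (40.4% ± 1.66). The replicates count the same 10 genes, so they do not repeat the comparison on other genes. Over the pooled list the shares were 24.2% and 27.9%, and below the optimal threshold 24.5% and 24.6%. The shares over all peaks are not limited to long genes. Of the pairs made by the rule, 30.5% were upstream over genes of any size and 10.4% over genes above 10 kb. The part of gene length in the lower share near a start was not tested. Of the 4 optimal summits within 500 bp of a start, only the grh peak lay at a start of its own gene. The others lay at lncRNA:CR44977, sktl, and KP78a with KP78b. None of the 6 peaks above rank 3290 was within 500 bp of a start. Of the 128 pooled summits, 106 were intronic, 13 in a 5' UTR, 3 in coding sequence and 6 upstream.

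The GATA hexamer share at these peaks was near that of Grain peaks in general, but with few peaks it moved with the peaks and the window used. It lay within 50 bp of 8 of the 18 optimal summits (44.4%, 95% Wilson interval 24.6 to 66.3, counting error only), against 46.2% of all optimal peaks. Within 25 bp the shares were 22.2% and 28.7%. Leaving out replicate 1, that is, keeping the optimal peaks matched in both other replicates, gave 7 of 10 (70.0%), against 47.6% of all. Equal windows centred 500 bp right or left of the summit held it in 3 and 3 of 18 (16.7% each), against 18.5% and 18.3% of all. Among each replicate's strongest 6580 peaks, the hexamer share was 48.6% ± 12.1 (SD, n = 3) at the 10 genes and 44.2% ± 0.656 over all peaks. The 8 summits were 4 in brat and 1 each in insc, pros, nub and svp. They lay mostly at the stronger peaks, with 5 of 6 above rank 3290 and 3 of 12 below it, where the shares of all optimal peaks were 51.1% and 41.4%. AGATAA was present at 4 of the 18, AGATAG at 2, TGATAA at 2 and TGATAG at none, where 19.1%, 9.39%, 21.5% and 6.43% of all optimal peaks held them. No window of the 18 held more than 1 hexamer, against 14.2% of all optimal peaks, and none held the longer form, the hexamer ending in AA followed by G, against 17.2%. Of the 110 weaker pooled summits, 33 had the hexamer (30.0%, against 28.5% of all weaker pooled peaks), 10 had more than 1 (9.09%, against 5.85%) and 10 had the longer form (9.09%, against 7.55%). Over all 128 the hexamer share was 32.0%, against 32.4% of all pooled peaks.

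Other letters were looked for in the same windows on both strands. GAGAG, which GAGA factor binds, lay at 7 of the 18 summits (38.9%), 3 of them in brat, 2 in insc, 1 in svp and 1 in grh, against 15.0% of all optimal peaks. It lay in 2 of 18 windows on each flank (11.1%), against 12.3% and 12.1% of all, and overlapped no hexamer. CAGCTG, an E box of proneural bHLH proteins, lay at 2 of the 18 (11.1%, against 4.76% of all), in the fifth brat peak and the first insc peak. ATGCAAAT, the octamer bound by POU proteins such as those of nub and pdm2, lay at 1, the second brat peak (5.56%, against 1.11% of all). CAGGTA, AACCGGTT and TATCGATA, letters of the Zelda, Grainyhead and DREF motifs, lay at none, and 2.71%, 0.167% and 1.34% of all optimal peaks held them. Of the 110 weaker pooled summits, 22.7% had GAGAG, against 13.3% of all weaker pooled peaks. For CAGCTG the shares were 7.27% and 4.62%, for ATGCAAAT 3.64% and 1.61%, and for CAGGTA 1.82% and 2.18%. None of the 110 had AACCGGTT or TATCGATA, against 0.218% and 0.777%. With 18 windows, 1 window is 5.56 percentage points, and all these shares are counts of letters.

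Other genes of the same processes were read from 3 lists, and all their members were found in the annotation. Of 19 genes of the asymmetric division machinery, 12 (63.2%) held an optimal summit, against 25.5% of all protein-coding genes, and 7 of the 10 over 10 kb did, against 55.3% of all of that size. The strongest peaks were in introns of cno, the gene of Canoe at cell junctions (signal 1070, 6 optimal summits), and of the polarity gene scrib (signal 525, 8 summits), and upstream of the mitotic kinase gene aurA (signal 443), where CG3281 has the nearest coding start. The small GTPase gene Cdc42 and the polarity gene dlg1 held none, though dlg1 spans 41112 bp. Of 22 genes of neuroblast formation and identity, 8 (36.4%) held one, against the same 25.5%. These were the 8 that span over 10 kb, a size at which 55.3% of all genes held one, and none of the 14 shorter ones did, against 20.1%. They included the ETS factor gene pnt (signal 536, 9 summits), the zinc-finger gene klu (signal 433, 5 summits) and the Notch ligand gene Delta (signal 387, 3 summits), while the proneural gene ac and the neuroblast bHLH gene ase held none. Of 16 other temporal genes, 9 (56.2%) held one, against 25.5% of all, and 8 of the 10 over 10 kb did, against 55.3%. These included lin-28, which encodes an RNA-binding protein (signal 849; ranks 67, 66 and 68 in the replicates), chinmo, a BTB zinc-finger gene of early-born neurons (signal 458, 1 summit), and the homeodomain gene hth (signal 413, 15 summits). Eip93F, a late factor that spans 66426 bp, and hb, the first of the embryonic sequence, held none in the optimal or the pooled list. The genes of these lists are described by their counts alone.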

How the data were processed

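ChIP-seq of Grain was read from peak lists in which the authors deposited, per peak, an interval, a summit, a signal value of unstated scale and a −log10 q-value; the sources used here name no aligner or peak caller. Per the file names and the notes deposited with them, each replicate list and the pooled list hold peaks together with background. They were called against a control that is not analysed here. The optimal list was cut from these lists by IDR, which rates how reproducibly peaks rank between replicates. A single optimal peak need not rank alike in every replicate, as the third brat peak did not. Lists for each of the 3 replicates, their pool and an optimal set, all in dm6, were used, and the dm3 lists were not. The optimal peaks are the 6580 strongest pooled peaks by signal, so each replicate's 6580 strongest were read as its matching set. Ranks were taken by signal within a list, since signals of different lists share no scale. A peak matched a replicate if the intervals shared at least 1 bp. Depth is unknown. Genes came from Ensembl 115 (BDGP6) and bases from the RefSeq release 6 genome, whose coordinates are those of dm6. Motifs were sought in 101 bases centred on the summit and in flanks centred 500 bp away. The single group gives no conditions to compare, and the members were chosen with results known, so no test was run and counts stand beside those of all peaks or genes. Wilson 95% intervals cover counting error only. SDs measure the spread between the 3 replicates.

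The named genes were all 10 members, and of each further list the 3 with the strongest optimal peak and the first 2 in alphabetical order with none; peaks were all of a member's optimal ones up to 3, otherwise its 3 strongest. Peaks beyond these, and the split of genes at 10 kb, were chosen after the values were seen. The members and lists were chosen with earlier results of these data known. Counting was tested on simulated peaks. Python 3.11.15, numpy 2.4.6, scipy 1.17.1 and matplotlib 3.10.9 were used.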

Additional observations from a re-analysis of the deposited data

How the results depend on the processing

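Of 41 alternative values, 29 stayed within the 95% Wilson interval of the reported share or within 1.5 times the reported count, and 12 moved. These limits are wide, so staying within them is a weak check. For the 6 genes any number from 4 to 9 stays, and all 9 alternatives did, those that lost genes included. Counting distinct intervals could only give 18 again, since no 2 of the 18 summits share an interval. The genes with an optimal summit numbered 6 with gene bodies alone and with a longer upstream reach. They also numbered 6 in peaks found in all 3 replicates and without any 1 replicate. By nearest coding start they numbered 4 (brat, insc, nub and grh, with pros and svp lost), with insc kept through a start it shares with sktl. Above rank 3290 they numbered 4 (brat, insc, nub and svp). The like shares of all protein-coding genes under these changed rules were not taken. Over all pooled peaks, an alternative added after seeing the data, the genes numbered 9, and 47.4% of all protein-coding genes held such a summit. Peaks kept without 1 replicate are optimal peaks matched in the other replicates, so they include all peaks found in all 3. Once those gave 6 genes, the values without 1 replicate could not be lower, though they count among the 29. The optimal list itself was made with every replicate in it. The 18 optimal summits became 6 above rank 3290 and 128 over all pooled peaks, and 10 to 14 without 1 replicate, 10 of them without replicate 1 and 12 without replicate 2. The hexamer share of 44.4% became 83.3% above rank 3290, 22.2% within 25 bp, 0% with the longer form, and 50 to 70.0% without 1 replicate, highest without replicate 1. Of all optimal peaks kept without 1 replicate, 47.3 to 48.0% held the hexamer. The share found in all 3 replicates, 55.6%, became 100% with each replicate's whole list and 100% above rank 3290. Of all optimal peaks above rank 3290 it was 96.0%, and their share with whole lists was not taken. Without 1 replicate the share at the 10 genes was 55.6 to 77.8%, highest without replicate 3, and asking for fewer replicates cannot lower it. The share near a transcript start, 22.2%, became 0% above rank 3290, 5.56% with starts of the gene itself only, also added after seeing the data, 44.4% within 1000 bp (inside the interval, which is wide with 18 peaks), and 21.4 to 30.0% without 1 replicate. Of all optimal peaks kept without 1 replicate, 39.6 to 41.2% lay near a start. The series has 1 group, so no condition can be set against another. The shares at the 10 genes and over all peaks do pair by replicate and are given side by side. No test was run on these pairs, since the members were chosen with results known. Without read counts, a weak site and a missing one cannot be told apart below the 30000 peaks listed.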
